A study of Mus musculus with 8 samples.

Results

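The 38 genes described here encode proteins that fold, modify, move and clear newly made proteins in the endoplasmic reticulum (ER), the compartment where secreted and membrane proteins are made. They were chosen by gene symbol, from their known roles, out of the 21878 genes of a mouse RNA-sequencing table, and all 38 were found in it. They fall into 7 groups by role: 8 chaperones and their partners, 5 disulfide isomerases and oxidases, 3 J-domain co-chaperones, 4 stress sensors and sensor targets, 7 genes of ER-associated degradation, 9 genes of the translocon and signal peptidase, and 2 genes of the COPII vesicle coat. Wild-type astrocytes, glial cells that supply and support neurons, came from newborn C57BL/6 mice. Polyadenylated RNA was sequenced in 4 libraries of untreated cells and in 4 libraries of cells given a cocktail of C1q, tumor necrosis factor α and interleukin-1α, used to obtain reactive astrocytes that carry the complement fragment C3d. No dose or treatment time was given, and the treatment label of cocktail libraries 2, 3 and 4 spells C1q with another digit, so libraries were grouped by title. The labels do not say whether the libraries of a group came from separate cultures or animals, so the p-values rest on a spread between libraries that may be technical only.

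Proteins with a signal peptide enter the ER through the SEC61 channel, lose the signal peptide to signal peptidase, fold with the help of the chaperone BiP (gene Hspa5), of calreticulin, calnexin and the disulfide isomerases, and leave in COPII vesicles. Proteins that fail to fold are drawn back into the cytosol and degraded. When unfolded proteins build up, the sensors IRE1, PERK and ATF6 start the unfolded protein response, in which IRE1 splices Xbp1 mRNA and ATF6 and XBP1 act on promoters of chaperone genes. Reactive astrocytes are known for secreting complement, acute-phase proteins and cytokines, which pass through the same compartment.

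Values are FPKM, fragments divided by gene length and by library depth, so they can be set side by side between genes, and values after ± are SDs over the 4 libraries of a group. Depth lay between 19195898 and 20640490 fragments per library. Changes were tested with limma on log2(FPKM + 1) over the 11845 genes that reached 1 FPKM in 4 or more of the 8 libraries, and a gene was called at a Benjamini-Hochberg adjusted p under 0.05. The summed FPKM of 12 astrocyte markers was 2771 to 3232 in untreated and 2184 to 2198 in cocktail libraries, with Gjb6 under 1 FPKM in the mean of either group and S100b at 1.18 FPKM in untreated and 0.291 FPKM in cocktail libraries. Apoe made up 1813.5 and 1324 FPKM of this sum on average. Among these markers 9 were called lower and 2 higher, the latter being Aqp4 (165 to 253 FPKM) and Slc1a2 (9.73 to 52.3 FPKM). The summed level of 12 microglia markers was 12.9 to 14.8 in untreated libraries and 16.9, 18.0, 38.4 and 51.6 in cocktail libraries 1 to 4, and Cx3cr1, P2ry12, Tmem119, Ptprc and Trem2 were under 1 FPKM in the mean of either group. In this list 5 markers were called higher and none lower. They were Csf1r (0.903 to 2.47 FPKM), Itgam (0.910 to 2.62 FPKM), Tyrobp (2.81 to 5.23 FPKM), Fcer1g (2.15 to 7.29 FPKM) and Cd68 (3.83 to 8.05 FPKM). C1qa was not called. Aif1, another microglia marker, averaged 0.299 FPKM in untreated and 1.03 FPKM in cocktail libraries and did not enter the test. Markers of mural cells summed to 560–631 in untreated and 125–140 FPKM in cocktail libraries, of which Acta2 made up 581 and 111 FPKM on average. Neuronal markers summed to 139–157 and 49.5–56.2 FPKM, of which Stmn2 made up 125 and 38.8 FPKM on average, and Tubb3 was not called. Oligodendrocyte lineage markers summed to 166–176 and 97.1–102 FPKM, mostly Olig1 (139 and 74.8 FPKM), while Pdgfra was called higher. Ependymal markers summed to 145–160 and 78.3–90.8 FPKM. Fibroblast markers summed to 103–127 and 83.6–114 FPKM. Among them Dcn (1.45 to 8.31 FPKM), Lum (0.237 to 7.69 FPKM) and Pdgfra were called higher, and Col1a1 and Col1a2 lower. In RNA from a whole culture, fewer cells of a type and less RNA per cell cannot be told apart, and the part these markers play in the results below was not tested. Cocktail libraries 1 and 2 stood apart from 3 and 4 on the second principal component (-6.30 and -7.57 against 4.43 and 8.61), which held 2.11% of the variance against 93.5% for the first, which parts the groups.

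Of the 16 folding genes among the 38, 13 were higher in cocktail libraries, led by BiP, calreticulin and the isomerase Pdia6, while the co-chaperone Dnajc3 and the isomerase Pdia4 were lower. Of the 37 tested genes, 26 rose, 4 fell and 7 were not called. Of all tested genes 67.7% were called, with 26.6% higher and 41.1% lower, against 70.3% higher and 10.8% lower among these. Libraries rescaled by median ratios gave 69.7% called, 36.2% higher and 33.5% lower for all tested genes, and 27 rises and 3 falls for these. The median log2 change was 0.24 over the 37 and -0.05 over all tested genes. The 4 untreated and the 4 cocktail libraries did not overlap in 29 of the 37, with cocktail above in 25 and below in 4, while of all tested genes 62.7% did not overlap, 24.1% with cocktail above and 38.5% below. Most changes were small: 4 genes, Hspa5, Calr, Pdia6 and Xbp1, rose at least 1.5-fold, which is close to the 8.65% of all tested genes that did so. Derl3, at 0.28 to 0.82 FPKM from 10 to 29 fragments, was the member that did not enter the test. Together the 38 genes took 0.669% ± 0.00671 of all fragments in the untreated group and 0.825% ± 0.00782 in the cocktail group (SD, n = 4 each), and no cocktail library was below 0.817%. Without cocktail libraries 3 and 4 there were 24 rises and 4 falls, and without 1 and 2 there were 27 and 4.

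**Figure D1:**
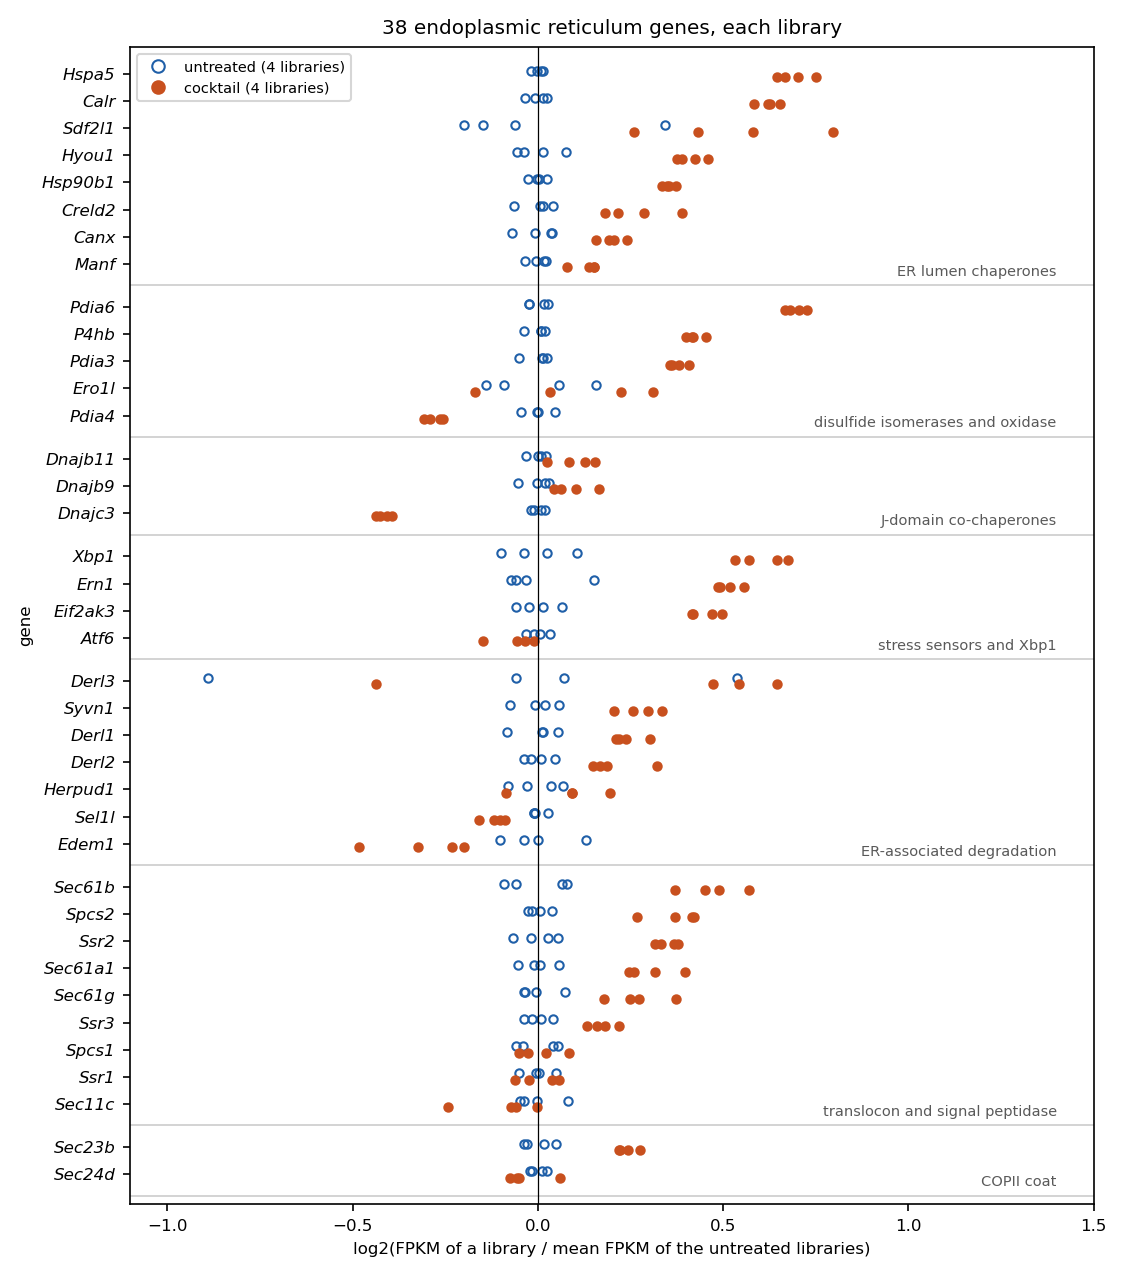
Each row is a gene and each point a library, placed by the log2 ratio of its FPKM to the mean of the 4 untreated libraries (open, untreated; filled, cocktail). The filled points lie to the right of the open ones in 25 of the 37 tested genes and to the left in 4, among them Dnajc3 and Pdia4; Derl3, the widest row, rests on 10 to 29 fragments.

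The chaperone BiP, an ATP-driven chaperone that binds unfolded chains and holds the stress sensors inactive, is encoded by Hspa5 at chr2:34772090-34776529 (GRCm38). Hspa5 stood at 182, 179, 183 and 181 FPKM in untreated libraries 1 to 4 and at 295, 305, 283 and 288 FPKM in cocktail libraries 1 to 4. All 4 cocktail libraries lay far above every untreated one, and libraries 1 and 2 of the cocktail were above 3 and 4. The mean rose 1.62-fold, from 181 ± 1.67 to 293 ± 9.40 FPKM (log2 change 0.69, SE 0.028, limma adjusted p = 7.0e-10). Calr (chr8:84842088-84846931), the lectin chaperone calreticulin, was the most abundant of the 38, at 290, 300, 296 and 302 FPKM in untreated and 445, 467, 457 and 459 FPKM in cocktail libraries. Its groups did not overlap either, and the rise was 1.54-fold (log2 change 0.62, SE 0.026, limma adjusted p = 1.1e-09). A pseudogene named for it, Calr-ps, is annotated, and reads of such a copy could not be separated here.

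All 8 chaperones and partners rose, with a median log2 change of 0.38, and in 7 of them the groups did not overlap. Among all tested genes 26.6% rose, and in 24.1% the cocktail libraries lay above without overlap. Hsp90b1, the ER form of HSP90, rose 1.28-fold from 241 ± 3.47 to 307 ± 3.28 FPKM, and Canx, the membrane-bound sister of calreticulin, rose 1.15-fold from 179 ± 6.13 to 206 ± 4.95 FPKM. Hyou1, which exchanges the nucleotide of BiP, rose 1.33-fold from 28.6 ± 1.19 to 38.04 ± 1.02 FPKM. Creld2, a secreted stress-induced protein of the ER, rose 1.21-fold to 30.6 ± 1.96 FPKM, and Manf, a secreted BiP-binding trophic factor, 1.09-fold to 43.5 ± 1.06 FPKM. Exons of Manf overlap those of Dcaf1 and of an antisense transcript, and exons of Hsp90b1 those of a pseudogene on the other strand; whether counting used the strand is not given in the sources used here. Sdf2l1, a partner of BiP and the J-domain protein Dnajb11, was the least abundant of the group, at 6.37, 7.01, 6.61 and 9.27 FPKM in untreated and 12.7, 10.9, 8.76 and 9.87 FPKM in cocktail libraries. Untreated library 4 lay above cocktail library 3, so the groups overlapped, although the mean rose 1.45-fold (log2 change 0.48, SE 0.114, limma adjusted p = 0.0028) on 137 to 283 fragments per library.

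**Figure D2:**
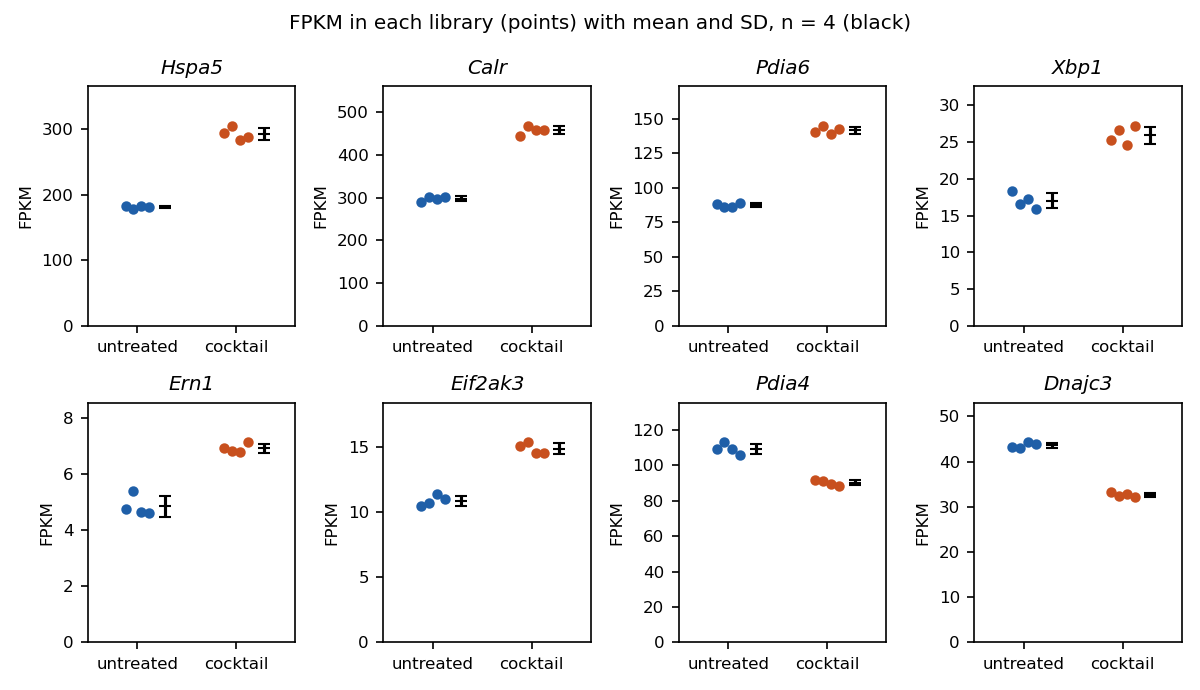
FPKM of 8 genes in the 4 untreated and 4 cocktail libraries (coloured points), with the mean and SD of each group beside them in black; every axis starts at 0. Hspa5, Calr, Pdia6, Xbp1, Ern1 and Eif2ak3 were higher and Pdia4 and Dnajc3 lower in all 4 cocktail libraries, without overlap.

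The disulfide isomerases, which form and shuffle disulfide bonds in folding proteins, did not move as 1 group. Pdia6 (chr12:17266589-17284785), which also acts on the sensor IRE1, stood at 88.5, 86.1, 86.1 and 89.3 FPKM in untreated and 140, 145, 139 and 143 FPKM in cocktail libraries. The lowest cocktail library was thus far above the highest untreated one, and the mean rose 1.62-fold (log2 change 0.69, SE 0.025, limma adjusted p = 3.2e-10). Pdia4 (chr6:47796141-47813512), an isomerase of the BiP-containing chaperone complex, went the other way. It had 109, 113, 109 and 106 FPKM in untreated and 91.5, 91.0, 89.4 and 88.3 FPKM in cocktail libraries. Every cocktail library lay below every untreated one, and the mean fell by 17.6%, with a log2 change of -0.28 (SE 0.027, limma adjusted p = 1.9e-06) as deposited and of -0.20 after median-ratio rescaling. Within a library Pdia6 over Pdia4 therefore went from 0.802 ± 0.0337 to 1.57 ± 0.0370, a ratio that a common factor for all genes of a library does not alter. Pdia3, the isomerase that works with calnexin and calreticulin, rose 1.30-fold from 197 ± 4.64 to 256 ± 4.14 FPKM, and P4hb, protein disulfide isomerase itself, 1.34-fold from 179 ± 3.12 to 239 ± 3.71 FPKM. Ero1l, the oxidase that recharges the isomerases, was not called, at 6.95, 7.19, 8.54 and 7.97 FPKM in untreated and 7.84, 6.82, 8.96 and 9.51 FPKM in cocktail libraries (log2 change 0.09, 95% interval -0.10 to 0.29). Cocktail libraries 3 and 4 were its highest, and library 2 was its lowest of all 8. Without cocktail libraries 1 and 2 its log2 change was 0.24 (limma adjusted p = 0.016), and without 3 and 4 it was -0.06 (adjusted p = 0.57).

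The J-domain co-chaperones, which bring BiP to its clients and start its ATP hydrolysis, were split as well. Dnajc3 (p58IPK, at chr14:118937932-118981702), known also as an inhibitor of PERK and related kinases, had the largest fall of the 38. Its values were 43.3, 43.1, 44.2 and 43.9 FPKM in untreated and 33.2, 32.4, 32.9 and 32.3 FPKM in cocktail libraries. The groups were tight and far apart, and the mean fell by 25.0%, from 43.6 ± 0.534 to 32.7 ± 0.437 FPKM (log2 change -0.40, SE 0.025, limma adjusted p = 3.7e-08). Dnajb9 (ERdj4), which restores BiP to IRE1, stood at 31.6, 30.1, 31.9 and 31.2 FPKM in untreated and 32.6, 33.5, 35.01 and 32.2 FPKM in cocktail libraries. Its groups touched without overlapping, and the 1.07-fold rise (limma adjusted p = 0.030) lost its call when any of 4 single libraries was left out, with adjusted p between 0.055 and 0.089. Dnajb11 (ERdj3), a secreted and lumenal J-protein, had 31.4, 32.2, 32.1 and 32.5 FPKM in untreated and 32.6, 35.02, 35.7 and 34.0 FPKM in cocktail libraries. Its groups touched as well, and the 1.07-fold rise (limma adjusted p = 0.021) likewise lost its call without untreated library 1 or cocktail library 2 or 3, with adjusted p of 0.060, 0.054 and 0.063.

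Transcripts of the sensor kinases rose, whereas that of ATF6 did not pass the test. Ern1, encoding IRE1α, stood at 4.73, 5.37, 4.65 and 4.61 FPKM in untreated and 6.94, 6.81, 6.78 and 7.11 FPKM in cocktail libraries. Untreated library 2 was above the other untreated libraries yet below every cocktail one, and the mean rose 1.43-fold (log2 change 0.44, SE 0.049, limma adjusted p = 6.7e-06). Eif2ak3, encoding PERK, the kinase that phosphorylates eIF2α, had 10.4, 10.7, 11.4 and 10.97 FPKM in untreated and 15.05, 15.3, 14.5 and 14.5 FPKM in cocktail libraries. The groups did not overlap and the rise was 1.37-fold (log2 change 0.42, SE 0.037, limma adjusted p = 8.2e-07). Its exons overlap by 485 bases a transcript on the other strand that is annotated without a known function. Atf6 was at 10.7, 10.4, 10.5 and 10.2 FPKM in untreated and 10.2, 10.03, 10.4 and 9.41 FPKM in cocktail libraries, which overlap. Its log2 change was -0.06 (95% interval -0.14 to 0.03, limma adjusted p = 0.20) as deposited and 0.01 after rescaling, so its sign changed with the scaling.

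Xbp1 (chr11:5520641-5525993), which encodes the transcription factor made from the mRNA that IRE1 splices, stood at 18.3, 16.6, 17.3 and 15.9 FPKM in untreated and 25.3, 26.6, 24.6 and 27.2 FPKM in cocktail libraries. The groups did not overlap, and the mean rose 1.52-fold from 17.0 ± 1.04 to 25.9 ± 1.19 FPKM (log2 change 0.58, SE 0.046, limma adjusted p = 3.4e-07). Values per gene do not separate spliced from unspliced Xbp1 mRNA, nor the active from the inactive form of any sensor.

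ATF6 and XBP1 are known to act through short DNA elements in the promoters of some chaperone genes. RefSeq promoter windows (GRCm38.p6, 250 bases before to 50 bases after the start) were matched for 31 of the 38 genes, and 2 of the genes had 2 windows. None was matched for Hyou1, Manf, Atf6, Derl1, Sec61a1, Ssr2 and Sec11c. The ER stress response element (ERSE) was searched on both strands as CCAAT and CCACG 9 bases apart. Of the 31 genes, 9 (29.0%) held it, against 37 of 27025 genes (0.137%) and 39 of 32851 promoter windows (0.119%). The 38 genes were chosen by known role, and these elements are known from chaperone promoters, so this share tests nothing. They were Hspa5, Calr, Hsp90b1, Canx, Creld2, Pdia6, Syvn1, Dnajc3 and Derl3. Of these 7 rose, Dnajc3 fell and Derl3 was not tested, while of all tested genes 26.6% rose and 41.1% fell. ERSE-II, ATTGG and CCACG 1 base apart, was in Herpud1 and Dnajb11 (12 windows in all, 0.0365%). The XBP1 element UPRE, TGACGTGG, was in Sec24d (0.676% of windows), and the amino acid response element CARE that ATF4 binds was in none of the 31 (0.965% of windows). That Sec24d window (chr3:123267246-123267545) lies inside the annotated gene, which starts at 123264801, and not at the annotated gene start. No window of these genes held more than 1 kind of element. A match describes the sequence and does not show binding.

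The stretches below were chosen because they show this family of elements in genes that went different ways: in order, the strong rises of Hspa5, Pdia6 and Calr, Hsp90b1 with 2 elements, Dnajc3, which fell, and Herpud1, which was not called. Each is given 5′ to 3′ on the strand of the gene, upstream of its start, with the letters of the element in capitals; in Calr and in the second element of Hsp90b1 it lies on the opposite strand and reads CGTGG then ATTGG.
Hspa5 (chr2:34772015-34772053, plus strand): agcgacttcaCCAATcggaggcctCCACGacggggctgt
Pdia6 (chr12:17266481-17266519, plus strand): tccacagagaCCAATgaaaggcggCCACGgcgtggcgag
Calr (chr8:84847065-84847103, minus strand): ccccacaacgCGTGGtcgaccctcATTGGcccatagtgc
Hsp90b1 (chr10:86705523-86705666, minus strand): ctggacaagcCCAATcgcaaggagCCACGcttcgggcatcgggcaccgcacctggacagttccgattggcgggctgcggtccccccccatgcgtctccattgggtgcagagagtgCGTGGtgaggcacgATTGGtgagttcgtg
Dnajc3 (chr14:118937817-118937855, plus strand): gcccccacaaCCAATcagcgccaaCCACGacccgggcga
Herpud1 (chr8:94386367-94386397, plus strand): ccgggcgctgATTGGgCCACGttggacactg
The complete element of Dnajc3 sits 87 to 105 bases before its start, beside 80 to 98 for Pdia6 and 47 to 65 for Hspa5. Outside the 38 genes, 8 tested genes held an ERSE in their window: 1 rose (Hnrnpa3), 4 fell (Adcy3, Pan2, Spats2l and Xlr3b) and 3 were not called (Alg12, Ero1lb and Zfp57), and after rescaling Pan2 and Xlr3b were no longer called and Alg12 was called higher. The shares of all tested genes were 26.6% higher and 41.1% lower, and 36.2% and 33.5% after rescaling. Counts this small do not set these genes apart from those shares.

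ER-associated degradation, which extracts misfolded proteins for the proteasome, was mixed: of 6 tested genes 3 rose, 2 fell and Herpud1 was not called. After rescaling 4 rose and 1 fell. The shares of all tested genes were 26.6% higher and 41.1% lower, and 36.2% and 33.5% after rescaling. Syvn1, the ubiquitin ligase HRD1, rose 1.21-fold from 12.3 ± 0.472 to 14.9 ± 0.570 FPKM, while Sel1l, its adaptor, had 39.3, 40.3, 39.3 and 39.2 FPKM in untreated and 36.4, 37.1, 36.8 and 35.4 FPKM in cocktail libraries. Sel1l was lower in all 4 cocktail libraries, by 7.76% (limma adjusted p = 0.0025), but was not called after rescaling (log2 change -0.04, adjusted p = 0.23). Edem1, a mannosidase-like protein that picks out misfolded glycoproteins, stood at 5.60, 5.21, 5.46 and 6.13 FPKM in untreated and 4.48, 4.01, 4.77 and 4.87 FPKM in cocktail libraries. It fell by 19.0% without overlap (log2 change -0.26, SE 0.061, limma adjusted p = 0.0029). Derl1 and Derl2, derlins of the retrotranslocation complex, rose 1.18-fold to 33.8 ± 0.987 FPKM and 1.15-fold to 12.9 ± 0.714 FPKM; an exon of Derl2 overlaps Mis12 on the other strand by 231 bases. Herpud1, a scaffold of the HRD1 complex, had 21.8, 23.6, 24.1 and 22.6 FPKM in untreated and 21.7, 24.5, 24.5 and 26.4 FPKM in cocktail libraries. Cocktail library 1 was its lowest of all 8. Its log2 change was 0.07 (95% interval -0.05 to 0.19, limma adjusted p = 0.25) and it was called higher after rescaling (0.15, adjusted p = 0.026) and without cocktail library 1 (0.12, adjusted p = 0.028).

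At the entry gate, 6 of 9 genes rose and none fell, as deposited and after rescaling, with a median log2 change of 0.26 as deposited. The shares of all tested genes were 26.6% higher and 41.1% lower, and 36.2% and 33.5% after rescaling. All 3 subunits of the SEC61 channel rose: Sec61a1, the pore, 1.24-fold from 58.9 ± 1.88 to 72.9 ± 3.48 FPKM, Sec61b 1.39-fold from 45.6 ± 2.71 to 63.3 ± 3.63 FPKM, and Sec61g 1.21-fold from 29.5 ± 1.06 to 35.6 ± 1.99 FPKM. Genes of the translocon-associated protein complex, which helps some signal peptides to open the channel, differed. Ssr2 rose 1.27-fold to 90.0 ± 1.80 FPKM and Ssr3 1.13-fold to 163 ± 4.23 FPKM. Ssr1 had 16.5, 15.4, 16.0 and 15.9 FPKM in untreated and 15.3, 16.4, 16.6 and 15.7 FPKM in cocktail libraries. Its groups lay on top of each other, with a log2 change of 0.0036 (95% interval -0.08 to 0.08, limma adjusted p = 0.93). Ssr4, the other gene of this complex, went from 43.3 ± 2.71 to 44.8 ± 1.84 FPKM and was not called as deposited (limma adjusted p = 0.36), but was called higher after rescaling (adjusted p = 0.035). Annotation overlaps Sec61a1 with an antisense transcript by 388 bases and Ssr2 with a processed pseudogene on the other strand by 239 bases.

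The signal peptidase complex, which cuts signal peptides off, was likewise uneven. Spcs2 rose 1.29-fold from 35.3 ± 0.702 to 45.6 ± 2.21 FPKM; the pseudogene Spcs2-ps could share its reads. Spcs1 stood at 87.1, 81.5, 80.5 and 86.2 FPKM in untreated and 80.9, 85.1, 82.3 and 88.8 FPKM in cocktail libraries, which overlap throughout (log2 change 0.0082, 95% interval -0.07 to 0.09). Sec11c, a catalytic subunit, went from 16.5 ± 0.684 to 15.5 ± 1.09 FPKM and was not called (log2 change -0.09, 95% interval -0.20 to 0.02, limma adjusted p = 0.14).

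Of the COPII coat pair, Sec23b, a subunit of the inner coat, rose 1.18-fold from 31.8 ± 0.908 to 37.6 ± 0.694 FPKM. Sec24d, a cargo-binding subunit, was at 20.5, 20.3, 19.8 and 19.9 FPKM in untreated and 21.0, 19.4, 19.4 and 19.1 FPKM in cocktail libraries. Cocktail library 1 was its highest of all 8 and the other cocktail libraries its lowest, with a log2 change of -0.03 (95% interval -0.11 to 0.05) as deposited and 0.04 after rescaling. Its UPRE match, in a window inside the annotated gene, is the only one of these genes.

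**Figure D3:**
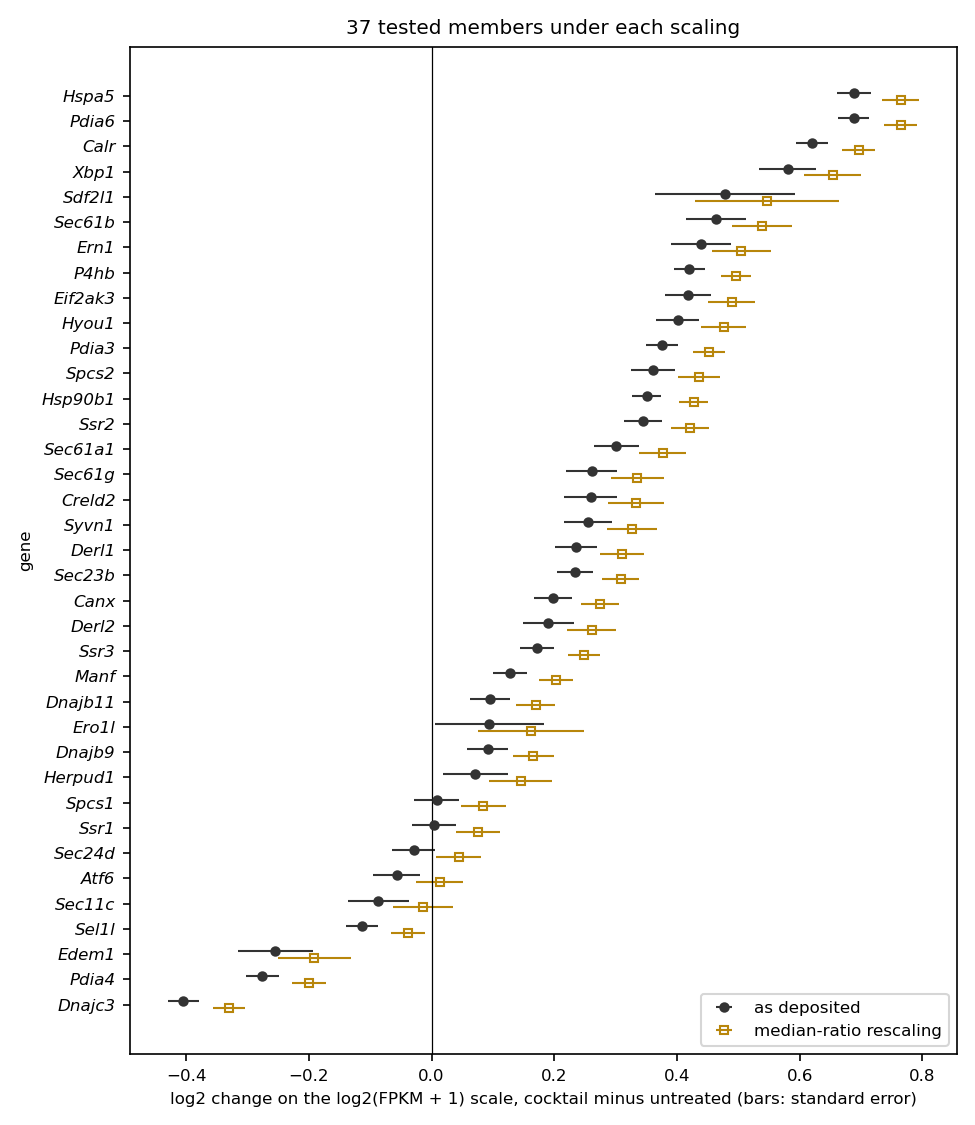
Log2 change of the 37 tested genes on the log2(FPKM + 1) scale, with bars of 1 standard error, for the values as deposited (filled circles) and after median-ratio rescaling of the libraries (open squares). The rescaled values lie to the right, with a median of 0.31 against 0.24; Atf6 and Sec24d change sign, and Dnajc3, Pdia4 and Edem1 are called lower in both.

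A further 174 genes of the secretory pathway and of other chaperone systems were listed by role, and 171 were tested: 76 rose, 45 fell and 50 were not called, with a median log2 change of 0.05, and 97 rose and 32 fell after rescaling. Beside each list below stand the shares of all tested genes: 26.6% higher and 41.1% lower, and 36.2% and 33.5% after rescaling. N-glycosylation, in which the oligosaccharyltransferase transfers sugar trees to new chains, had 9 rises and 2 falls among 12 genes (10 and 2 after rescaling). The falls were in Stt3b, a catalytic subunit, which went from 64.4 ± 1.78 to 40.7 ± 0.817 FPKM (log2 change -0.65, limma adjusted p = 1.5e-09) and Tusc3, an oxidoreductase subunit, from 47.5 ± 1.01 to 31.7 ± 1.07 FPKM. Tmem258, a subunit of the same enzyme, rose from 54.8 ± 2.85 to 71.0 ± 2.97 FPKM. Of 9 genes of glycoprotein folding and cargo lectins 5 rose and 2 fell (6 and 1 after rescaling), with Mcfd2, a cargo receptor partner, Uggt1, which re-tags unfolded glycoproteins, and Mogs, a trimming glucosidase, among the rises.

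Of 25 other foldases of the ER, 7 rose and 10 fell as deposited, shares close to the 26.6% and 41.1% of all tested genes, and 11 rose and 8 fell after rescaling. P4ha1, a collagen prolyl hydroxylase subunit that pairs with P4hb, fell from 57.6 ± 2.39 to 28.8 ± 0.191 FPKM (log2 change -0.97, limma adjusted p = 1.1e-10), while P4hb rose. Prdx4, an ER peroxiredoxin, fell from 27.9 ± 0.682 to 17.5 ± 1.31 FPKM. Fkbp11, a prolyl isomerase, rose 1.81-fold from 5.42 ± 0.908 to 9.80 ± 0.762 FPKM. Of 15 other targeting, translocon and signal peptidase genes 6 rose and 3 fell (8 and 2 after rescaling). Srp72 and Srpr, of the signal recognition particle and its receptor, rose 1.24-fold and 1.19-fold, and Spcs3, a further signal peptidase subunit, fell from 15.9 ± 0.729 to 13.6 ± 0.646 FPKM. Sec11a, the other catalytic subunit of signal peptidase, rose 1.07-fold to 39.8 ± 1.78 FPKM. Of 20 other degradation genes 3 rose and 6 fell as deposited, and 6 rose and 2 fell after rescaling, with the ubiquitin ligase March6 (29.9 ± 0.313 to 24.9 ± 0.868 FPKM) among the falls and Nploc4, a cofactor of the extracting ATPase, among the rises.

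In the PERK and ATF4 arm, 13 of 24 tested genes rose and 7 fell (15 and 6 after rescaling). Nupr1, a stress-induced nuclear protein, rose 10.2-fold from 8.76 ± 1.08 to 89.2 ± 8.44 FPKM, Slc7a11, the cystine transporter, 6.25-fold from 3.02 ± 0.390 to 18.9 ± 1.00 FPKM, and Cebpb, a transcription factor of the acute-phase response, 3.93-fold from 30.8 ± 3.71 to 121 ± 4.68 FPKM. These were the largest changes of the list. Others, named after their values were seen, rose less: Atf4 1.45-fold, Atf3 1.78-fold and Ddit3 1.24-fold. Ppp1r15a fell by 6.95% and was not called after rescaling. Chac1 was not called, and Atf5 was called higher only after rescaling. Some genes of amino acid supply in the same arm fell, named here after their values were seen: the transporter subunits Slc7a5 and Slc3a2 by 46.4% and 36.2%, and the serine synthesis enzymes Psat1 and Phgdh by 28.3% and 27.6%. Amino acid genes of this arm did not move as a class. Shmt2 fell by 11.2%, and Mthfd2 was not called. Asns was not called as deposited and was called higher after rescaling. Slc7a11 and the enzymes that load tRNAs with amino acids (Aars, Gars, Nars, Sars and Wars) rose. Of 6 ATF6-like factors and site proteases 3 rose and 3 fell (3 and 2 after rescaling). Creb3l1 (OASIS), a membrane-bound factor known from astrocytes and bone cells, rose 3.99-fold from 8.13 ± 0.260 to 32.5 ± 1.35 FPKM (log2 change 1.87, SE 0.038, limma adjusted p = 2.2e-12), Atf6b rose from 22.1 ± 0.189 to 26.8 ± 1.25 FPKM, and Creb3 fell from 33.8 ± 0.911 to 27.7 ± 2.02 FPKM.

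Downstream of folding, 10 of 13 other COPII genes rose and none fell (11 and none after rescaling), among them Tfg, Sec23a and Sec31a at 1.34-fold, 1.32-fold and 1.28-fold. Sec23b over Sec23a went from 1.21 ± 0.0243 to 1.09 ± 0.0516. Of 14 genes of COPI and KDEL retrieval, which return escaped ER proteins, 10 rose and 1 fell (12 and 1 after rescaling). Surf4, a cargo receptor, rose from 76.7 ± 0.782 to 104 ± 1.41 FPKM, Cope, a coat subunit, 1.21-fold, and Copz2, another coat subunit, fell by 20.4%. The p24 and ERGIC cargo receptors had 1 rise (Tmed9) and 4 falls among 10 genes as deposited, and 2 of each after rescaling, with Ergic1 going from 72.1 ± 2.83 to 50.9 ± 1.22 FPKM and Tmed5 falling by 13.7%. Of 5 tested genes of the ER calcium store 2 rose and 3 fell (2 and 2 after rescaling). The calcium sensors parted: Stim1 fell from 16.4 ± 0.571 to 8.97 ± 0.461 FPKM and Stim2 rose from 10.1 ± 0.390 to 15.4 ± 0.529 FPKM. So did the release channels: Itpr1 fell by 20.3% and Itpr2 rose 1.29-fold, from 3.08 to 3.96 FPKM. Of 18 chaperones of the cytosol and mitochondria 7 rose and 4 fell (11 and 4 after rescaling): Hsp90ab1 rose from 627 ± 9.43 to 874 ± 9.91 FPKM, Hspe1 rose 1.19-fold and Hspb1 fell from 20.03 ± 1.29 to 11.6 ± 0.855 FPKM.

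**Figure D4:**
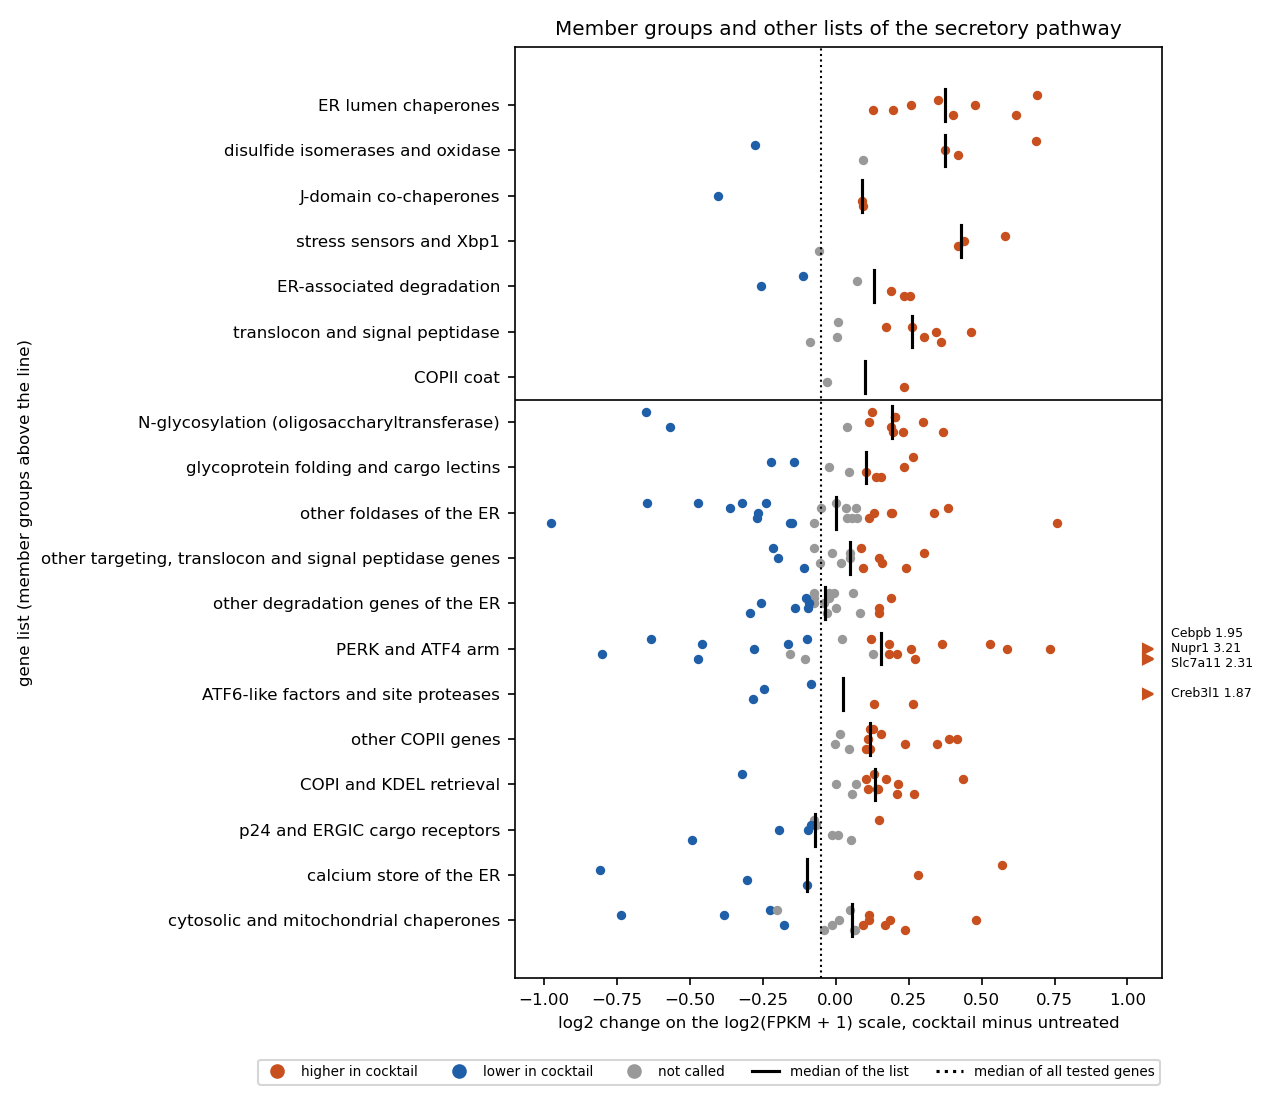
Log2 change of each tested gene (points) on the log2(FPKM + 1) scale for the 7 role groups of the 38 genes, above the line, and the 12 other lists, below it; black bars are list medians, the dotted line is the median of all tested genes (-0.05), and arrowheads with values are genes beyond the axis. Chaperones, sensors and translocon genes sit mostly to the right, while other foldases, other degradation genes and cargo receptors spread to both sides.

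Of secreted proteins, a few known from reactive astrocytes were looked at here, which says nothing of cargo as a class. Saa3, an acute-phase protein, rose 104-fold from 13.8 ± 2.60 to 1429 ± 197 FPKM. Lcn2, a lipocalin, rose 7.89-fold from 1852 ± 61.3 to 14623 ± 430 FPKM, and C3, the secreted complement component, 3.09-fold from 1129 ± 59.3 to 3491 ± 86.4 FPKM. The largest rises among the 38 genes, of Hspa5 and Pdia6, were 1.62-fold.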

How the data were processed

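The authors deposited FPKM per gene for 8 libraries made with a stranded mRNA kit, per the labels. The submitters' processing notes name DESeq and mm10; which aligner, counting program and strand setting were used is not given in the sources used here. Within a gene, FPKM stood in ratios of whole numbers (relative tolerance 2e-12), which gave fragments for 16557 genes, 99.86% to 99.89% of each total. A count of 0 allows 3 fragments, for counting error only.

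The fit was limma 3.58.1 (R 4.3.3) with a variance trend on log2(FPKM + 1), two-sided, 4 against 4 libraries, no covariate, with Benjamini-Hochberg adjustment over all 11845 tested genes at 0.05. This scale understates changes of low genes, and fold changes in the text are ratios of mean FPKM. No pair of libraries of a group agreed within counting noise (chi-square per gene 2.11 to 6.79), which does not show separate cultures; each entered as 1 sample, following the labels. The steps were tested on simulated data. Alternatives were other pseudocounts, filters, scalings and variance models, each library left out, cocktail libraries 1 and 2 or 3 and 4 left out, a replicate block, and voom on recovered fragments.

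Members and gene lists were chosen with earlier results of these data known. Values per library were given for the 6 largest rises and the falls among called members, the sensors, and members whose call or direction changed with rescaling or without 1 library; Ero1l was added after its values were seen. Of each other list up to 3 called genes with the largest log2 change were named, with at least 5 FPKM in a group; 1 gene of this rule is not reported here. The genes outside the lists that hold an ERSE, and the ontology terms, were chosen after the data were seen. Promoters are RefSeq's, matched by NCBI gene number; gene positions are from NCBI's GRCm38.p6 annotation and exon overlaps from GENCODE's on GRCm38. Same-numbered libraries deviated together little (correlations of -0.04, 0.08, 0.09 and -0.01). The 0.08 and 0.09 were the highest between any untreated and any cocktail library. This does not settle whether replicate numbers pair the libraries, and the main fit used no pairing. Protein sequences were not analysed here.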

Additional observations from a re-analysis of the deposited data

Results flagged for a closer look

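In 4 of 76 groups of 4 libraries, 1 library lay far from the other 3 of its group, with a gap to the nearest that took most of the group's whole range (0.840, 0.835, 0.950 and 0.831 of it, in the order below); chance alone gives this in about 1 in 20 groups. Untreated library 2 was the odd library for Pdia3 (189.89 FPKM, the nearest being 198), for Ern1 (5.37 FPKM, the nearest being 4.73) and for Sel1l (40.3 FPKM, the nearest being 39.3). Cocktail library 1 was the odd library for Sec24d (21.0 FPKM, the nearest being 19.4). The calls of Pdia3, Ern1 and Sel1l were kept without untreated library 2, and Sec24d was not called with or without cocktail library 1.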

How the results depend on the processing

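Of the 37 tested genes, 28 kept direction and call under all 19 alternatives run. The median log2 change of the 37 moved to 0.31 under median-ratio rescaling and was 0.23 under quantile normalization. Quantile normalization gave smaller rises for some abundant genes, all still called: Hspa5 0.58 against 0.69 as deposited, Calr 0.44 against 0.62, and Hsp90b1 0.22 against 0.35. Canx had 0.080 against 0.20 (limma adjusted p = 0.025 under quantile normalization). Sdf2l1 went the other way, with 0.54 against 0.48. Leaving out 1 library at a time gave 2942 to 3059 rises and 4664 to 4765 falls over all genes, 24 to 27 rises and 4 falls among the 38 genes, and a median of 0.22 to 0.25. With the replicate number as a block there were 3121 rises and 4829 falls, 26 and 4 among the 38 genes, and no call among them changed. Signs turned only in genes not called: Ero1l without cocktail libraries 3 and 4 (-0.056), Atf6 after rescaling (0.013), and Sec24d after rescaling (0.044) and without cocktail libraries 3 and 4 (0.0039). Ssr1 turned without cocktail libraries 3 and 4 (-0.0099) and ranged from -0.014 to 0.024 with single libraries left out, and Spcs1 under quantile normalization (-0.00058), without cocktail libraries 3 and 4 (-0.013), with -0.017 to 0.027 when single libraries were left out. Dnajb9 was also not called under quantile normalization (adjusted p = 0.064) or without the variance trend (adjusted p = 0.051), by limma. The causes were not tested. Genes under 1 FPKM, such as Derl3, were left out of the main test by its filter. Derl3 entered the fit without a filter, which also gave 26 rises and 4 falls among the 38 genes.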

Other observations

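The deposited table also carries gene ontology terms, which give lists not drawn up for these genes. Among tested genes of the term for the ER lumen, leaving out the 38 genes, 9 of 33 rose and 11 fell, with a median log2 change of -0.02, and after median-ratio rescaling 14 rose and 9 fell. Among those of the term for the ER unfolded protein response, 14 of 33 rose and 10 fell (17 and 8 after rescaling), and among those of the term for protein disulfide isomerase activity, 2 of 10 rose and 5 fell (3 and 4 after rescaling). In the term for the COPII vesicle coat 6 of 10 rose and none fell. In the term for response to ER stress 17 of 47 rose and 16 fell (21 and 10 after rescaling). For the signal peptidase complex 1 of 3 rose and 2 fell, as deposited and after rescaling. For the ER chaperone complex 1 of 2 rose and 1 fell (1 and none after rescaling). Of all tested genes 26.6% rose and 41.1% fell, and 36.2% and 33.5% after rescaling.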
